A study of Danio rerio with 4 samples.

Results

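Chromosome 21 of the zebrafish carries myo5b, the gene mutated in goosepimples (gsp) embryos, and all rows of the deposited expression table placed on that chromosome are described here. Of 27423 rows in the table, 997 lie on chromosome 21 of the danRer7 build, where the first model starts at base 2840 and the last ends at 44496512. They comprise 949 protein-coding models, 27 pseudogenes, 14 miscellaneous RNAs and 7 of unknown type, and 56 overlap another row. Rows were chosen by position alone. A row is a gene model with 1 value in each library, and 516 of the 997 rows had a value of at least 100 in all 4 libraries, as had 13633 of the 27423 rows of the table. These 516 rows are called the kept rows. Ratios between libraries were taken over them on the log2 scale, and the median over the kept rows of all chromosomes was subtracted, so that 0 stands for the typical row. This is called the centred log2 ratio. The remaining 481 rows were not dropped from the account: 330 were at the floor value of 1 in all 4 libraries, and those with high values in a single line are given towards the end.

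RNA of whole zebrafish embryos at 48 hours post fertilisation was sequenced in 4 libraries, 1 a condition. The gsp mutants were homozygous for the goosepimples mutation of myo5b, and the gsp siblings were embryos of the same crosses that were heterozygous or homozygous wild type, in 1 pool. The rhs mutants were homozygous for romeharsha, a mutation whose gene is not known, and the rhs siblings were again heterozygous and homozygous wild-type embryos together. Heterozygous parents were crossed in each line, the homozygous embryos were sorted out by eye before collection, and each library is a pool of embryos, so a sibling library carries the mutant allele too. The comparisons are gsp mutant over gsp sibling, rhs mutant over rhs sibling and gsp sibling over rhs sibling. As each condition has 1 library, differences lack a replicate check, and none was tested. The sibling comparison shares a library with each mutant comparison, while the gsp and rhs comparisons share none. In RNA of whole embryos, fewer cells of a type and less RNA per cell cannot be told apart. The questions were whether the chromosome as a whole, and the 5 Mb around myo5b in particular, differed from other chromosomes and windows in the gsp comparison, and which genes of the chromosome differed between mutants and siblings.

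Myosin Vb is an actin-based motor that carries recycling endosomes, and it works with Rab11 and its effectors in bringing membrane to the cell surface of epithelia. In zebrafish embryos that lack it, cells of the periderm, the outer layer of the early epidermis, round up. Genes that sit close to a mutation are inherited with it, so that mutants selected for the mutation also share the parental haplotype around it, whereas their siblings carry a mixture. No genome sequence of the build was used here, and the comparison rests on RNA values only.

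Chromosome 21 took similar shares of the 4 libraries. It held 3.41% of the estimated counts in the gsp mutant library and 3.43% in the gsp sibling library, against 3.53% in the rhs mutant library and 3.49% in the rhs sibling library. Without the single row wu:fb15e04, described towards the end, the shares were 3.39% in the gsp mutant library and 3.33% in the gsp sibling library. The library totals lay between 106188690 and 118680429. The medians subtracted in centring were -0.11 in gsp, -0.20 in rhs and -0.06 between the siblings on the log2 scale, which is the shift of the typical row without centring. Known tissue markers were present, with all 24 markers found in the table read in both gsp libraries. One of them, the epithelial adhesion gene epcam, was at the floor in both rhs libraries, beside 93323 in the gsp mutant library and 44135 in the gsp sibling library. In the type column of the deposited table each row is marked FL or MO for each line. The meaning of these marks is not given in the sources used here.

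The chromosome as a whole was not displaced in either mutant. Its median centred log2 ratio was -0.014 in gsp and 0.014 in rhs over the 516 kept rows, and 0.0037 between the siblings. A row was called higher or lower where its centred ratio was at least about 1.5-fold, which is 0.57 or more from 0 on the log2 scale. In gsp, 40 of the 516 rows (7.75%) were higher in the mutant and 15 (2.91%) lower. Over the kept rows of all chromosomes the shares were 6.69% higher and 2.81% lower, so the chromosome stood close to the background. In rhs, 52 rows (10.1%) were higher and 29 (5.62%) lower, against 10.2% and 5.12% of all kept rows. Between the siblings, 49 rows (9.50%) were higher in gsp siblings and 31 (6.01%) lower, against 9.95% and 8.44%. The size of the gsp ratios, taken as the median of the absolute centred log2 ratio, was 0.20 on chromosome 21. This was the second highest among 25 chromosomes, whose values ran between 0.16 and 0.21, while in rhs the chromosome was at rank 10 with 0.21 and between the siblings at rank 23 with 0.21. The share of rows lower in gsp siblings than in rhs siblings was the lowest of the 25 chromosomes. The split between higher and lower rows followed the scaling. Without centring 34 rows were higher and 30 lower in gsp, and 36 higher and 63 lower in rhs. With TMM scaling, which trims extreme rows before scaling the libraries, 37 were higher and 18 lower in gsp, and 45 higher and 44 lower in rhs.

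**Figure D1:**
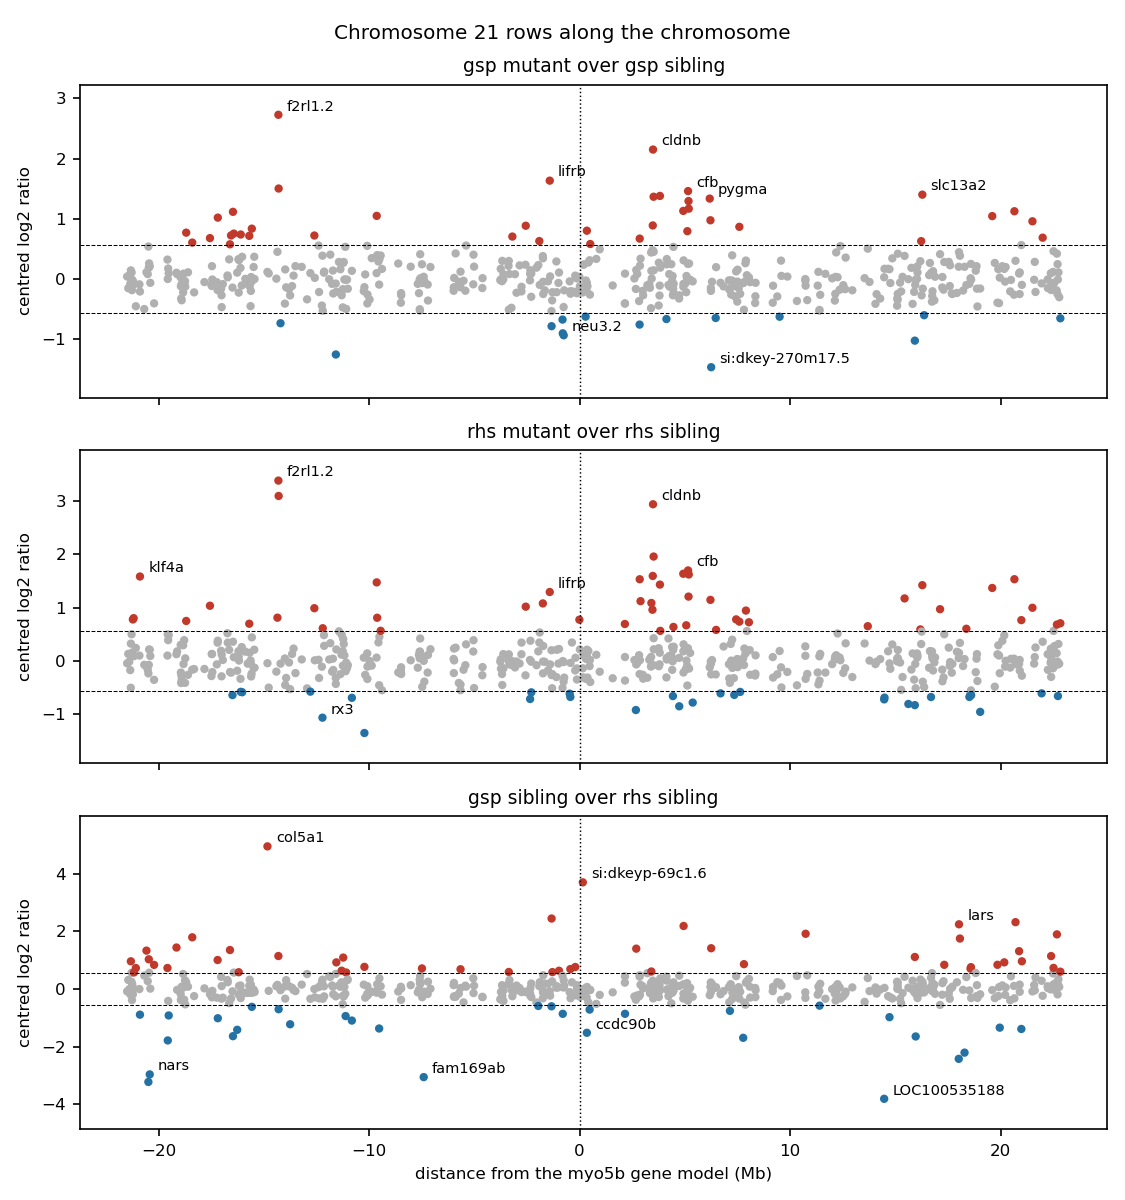
Centred log2 ratio of each of the 516 kept rows (points) against the distance of the row from the myo5b gene model in Mb, with a panel for each comparison. Red points are rows called higher, blue points rows called lower, dashed lines mark the threshold (0.57 on the log2 scale) and the dotted line marks myo5b. The highest points of the gsp panel lie 14.3 Mb before myo5b (f2rl1.2) and 3.48 Mb after it (cldnb), and both are among the 3 highest of the rhs panel, while 6 of the 15 low gsp points lie in the window that holds myo5b.

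The window around myo5b was then set beside the other 5 Mb windows. It spans 20 to 25 Mb, holds 162 rows of which 57 were kept, and had 73 rows at the floor in all 4 libraries. In gsp, 6 of the 57 rows (10.5%) were lower and 4 (7.02%) higher. The share lower was the fourth highest of the 265 windows of all chromosomes that had at least 20 kept rows, whose median share was 2.27% and whose highest was 25.8%. The share higher was at rank 109. The median centred log2 ratio of the window was -0.11, at rank 257 of 265 from the highest, and on chromosome 21 a single other window, at 30 to 35 Mb and also at -0.11, was that low. In rhs the same window had 3 rows lower (5.26%, rank 113) and 5 higher (8.77%, rank 159), with a median of -0.05 at rank 207. Between the siblings it had 5 lower and 7 higher, at ranks 108 and 75.

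The absolute size of the ratios in that window was less distinct. The median absolute centred log2 ratio was 0.22 in gsp, at rank 43 of 265 and above the upper quartile of all windows (0.21). It was 0.22 in rhs at rank 120, and 0.24 between the siblings at rank 96. On chromosome 21 itself the window at 10 to 15 Mb had a larger gsp value (0.23, rank 23), although a single row there passed the threshold.

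Rows were also counted outward from the myo5b model. Those within 1 Mb are all part of the window of myo5b, so their low rows were already counted above. Within 1 Mb, 95 rows were listed, 40 were at the floor in all 4 libraries and 31 were kept. Of these 31, 4 (12.9%) were lower and 2 (6.45%) higher in gsp, with a median of -0.12, while in rhs 2 were lower and 1 higher, with a median of -0.04. Of the same 31 rows, 19 were below 0 in gsp, 18 in rhs and 18 between the siblings. The share lower in gsp was 3.57% of 28 rows at 1 to 2.5 Mb and 2.70% of 74 rows at 2.5 to 5 Mb. It was 2.97% of 101 rows at 5 to 10 Mb and 1.77% of 282 rows farther away. These shares beyond 1 Mb stand for 1, 2, 3 and 5 rows. In rhs the shares lower, from within 1 Mb outward, were 6.45%, 7.14%, 4.05%, 3.96% and 6.38%. Beyond 1 Mb the gsp share was thus near the background of 2.81% at each distance.

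**Figure D2:**
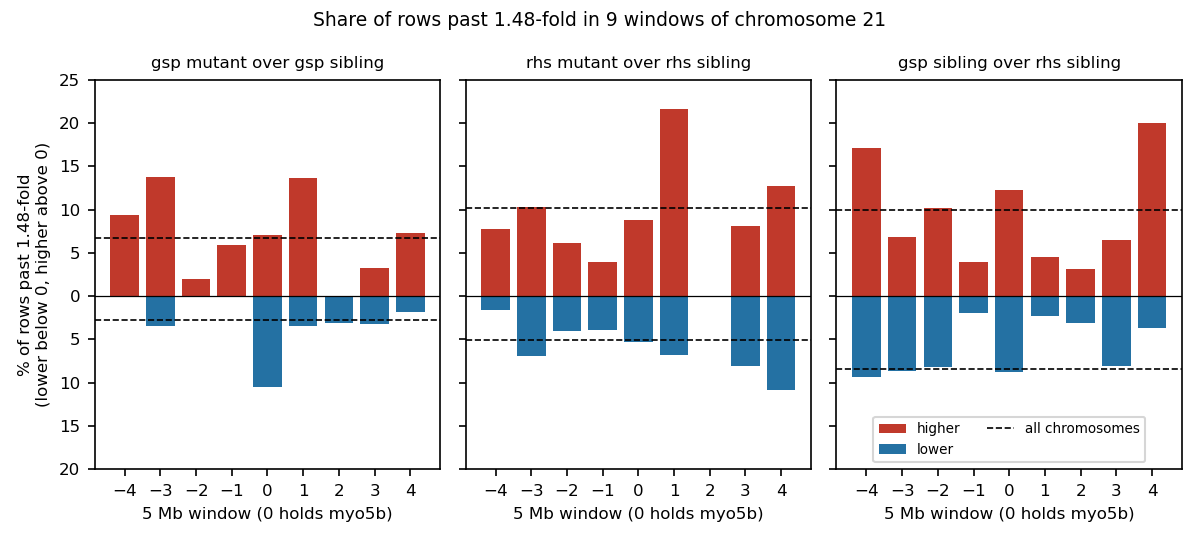
Share of kept rows called higher (red, above 0) and lower (blue, below 0), at the threshold of 0.57 on the log2 scale, in each 5 Mb window of chromosome 21, numbered from the window that holds myo5b, for the 3 comparisons. Dashed lines are the shares over all chromosomes. Window 0 has the tallest blue bar of the gsp panel (10.5%), and window 1 the tallest red bar of the rhs panel (21.6%).

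The difference between the lines, taken as the gsp minus the rhs centred log2 ratio, was also examined by position, since equal ratios in both mutants cancel in it. It was at least 0.57 above 0 in 45 of the 516 rows (8.72%) and as far below 0 in 40 (7.75%), against 7.64% and 7.89% of the kept rows of all chromosomes. In the myo5b window 6 of 57 rows were above and 7 below, and the median absolute difference was 0.28 at rank 81 of 265. Over the 516 rows the gsp and rhs ratios, which share no library, had a Pearson correlation of 0.58 across genes, given without a test because genes of 1 library are not replicates. On other chromosomes it lay between 0.41 and 0.75. In the myo5b window it was 0.43, and in the next window, at 25 to 30 Mb, 0.75.

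The model of myo5b itself lies on the minus strand from 21508888 to 21662553. Its value was at the floor of 1 in the gsp mutant library and in the gsp sibling library, against 193 in the rhs mutant library and 87.8 in the rhs sibling library. The rhs ratio was 2.20 with a 95% counting interval of 1.70 to 2.86. This is an exact Clopper-Pearson interval, and all intervals given here cover counting error only. They take counts as independent, while PCR copies are not independent molecules, so they can be too narrow even for that. Ratios given with an interval are not centred, and in each comparison the typical kept row lies below 1 on that scale. The floor stood in the gsp mutant and gsp sibling libraries alike, so that no gsp ratio can be given for the mutated gene. The row was marked FL in gsp and MO in rhs, as were all 12 rows that were at the floor in gsp in this way.

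The motor is also represented by a neighbouring row. LOC100536519, described in the table as myosin-Vb-like, lies on the same strand from 21400866 to 21495553, which leaves 13335 bases between the models. Its values were 1851 in the gsp mutant library and 1946 in the gsp sibling library (ratio 0.951, interval 0.892 to 1.01), and 3351 in the rhs mutant library and 2246 in the rhs sibling library (ratio 1.49, interval 1.41 to 1.57). It did not differ between the gsp libraries beyond counting error and was higher in the rhs mutant library. The sum of both rows, with the floor values left out, was 3544 in the rhs mutant library and 2334 in the rhs sibling library, a ratio of 1.52 (interval 1.441 to 1.601), and in gsp it equals the values of LOC100536519. Whether the rows are parts of 1 gene was not tested. Myosin Vb works with Rab11, and no other gene of that pathway list lies on chromosome 21. Elsewhere in the genome 16 rows of the list were kept, with 0 past the threshold in gsp and 5 higher and 2 lower in rhs. Over all kept rows 6.69% were higher and 2.81% lower in gsp, and 10.2% higher and 5.12% lower in rhs. In rhs rab11al had a centred log2 ratio of 1.17 and rab11bb one of -0.81. In gsp stxbp2 was just short of the threshold, at 0.563.

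The genes flanking myo5b varied little in gsp. On the near side, lmbrd2b, a membrane protein gene, had 2918 in the gsp mutant library and 3706 in the gsp sibling library, with a centred log2 ratio of -0.24, and skp2, an F-box gene of the cell cycle, had 2681 and 3349 there (-0.21). On the far side the checkpoint kinase gene chek1 had 1444 in the gsp mutant library and 1693 in the gsp sibling library (-0.12), beside 2158 in the rhs mutant library and 2129 in the rhs sibling library (0.22). None of these passed the threshold. The clone-named row si:dkeyp-69c1.6, 0.15 Mb from myo5b, had 1998 in the gsp mutant library and 2515 in the gsp sibling library against only 161 in the rhs mutant library and 202 in the rhs sibling library. Mutants and siblings of each line were alike there, with centred log2 ratios of -0.22 in gsp and -0.14 in rhs, while the siblings of the lines differed 12.4-fold (interval 10.8 to 14.4). Farther out on that side, birc2, an inhibitor of apoptosis, had 11478 in the gsp mutant library and 12585 in the gsp sibling library (-0.02). The retinoblastoma gene rb1 was at 0.27 in gsp and 0.19 in rhs, and the pyruvate dehydrogenase subunit dlat at 0.31 and -0.09.

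**Figure D3:**
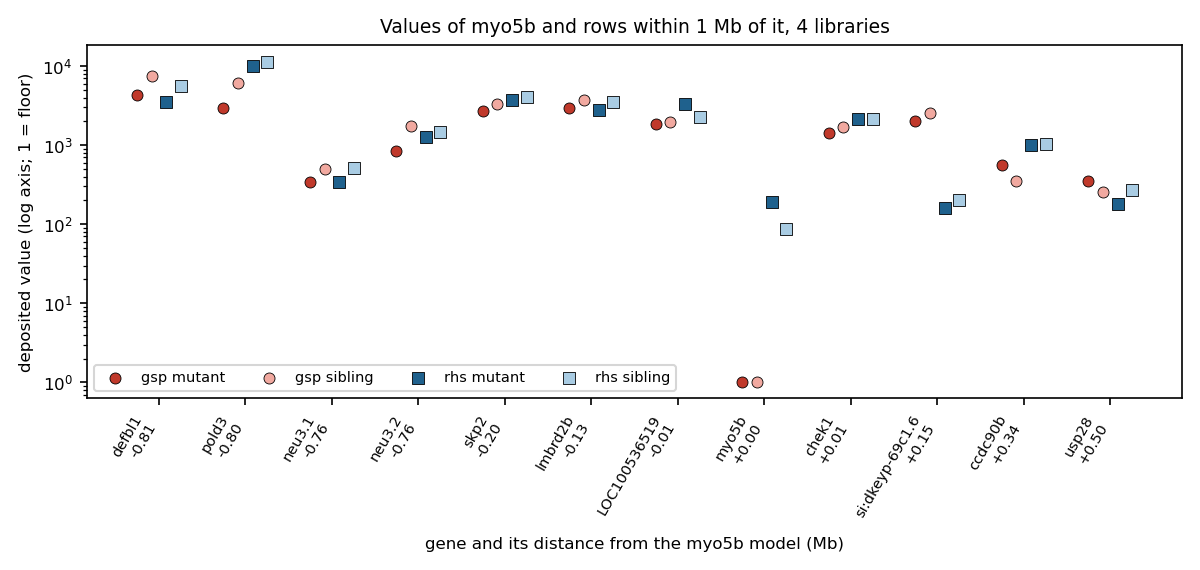
Deposited values (log axis, 1 is the floor) in the gsp mutant, gsp sibling, rhs mutant and rhs sibling libraries for myo5b and 11 rows within 1 Mb of it, ordered by position and labelled with their distance from the myo5b model in Mb. The gsp mutant points of pold3 (2994) and neu3.2 (848) lie below the gsp sibling points (6029 and 1748) while the rhs points of each lie close together, and myo5b is at the floor in both gsp libraries.

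The rows lower in gsp near myo5b lay mostly together. Between 20167186 and 20760330 there were 51 rows, of which 12 were kept, and 4 of the 12 were lower in gsp with 0 higher. The bounds of this stretch were chosen after its values were seen, so its count of low rows follows from that choice. Over the kept rows of all chromosomes 2.81% were lower and 6.69% higher in gsp. The median centred log2 ratio of the 12 was -0.41 in gsp and -0.15 in rhs, where 0 of them passed the threshold, and 10 of 12 were below 0 in gsp and 9 of 12 in rhs.

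The clearest members of this stretch were pold3, which encodes an accessory subunit of DNA polymerase delta, and neu3.2, which encodes a sialidase that removes sialic acid from glycolipids. For pold3 the values were 2994 in the gsp mutant library and 6029 in the gsp sibling library, against 9962 in the rhs mutant library and 11428 in the rhs sibling library. The gsp ratio was 0.497 (interval 0.475 to 0.519) and the rhs ratio 0.872 (0.849 to 0.896). Neither ratio is centred, and the typical kept row was itself at -0.11 in gsp and -0.20 in rhs on the log2 scale. The gsp mutant library was the lowest of the 4 for pold3, and the pold3 row was marked FL in gsp and MO in rhs. For neu3.2 the values were 848 in the gsp mutant library and 1748 in the gsp sibling library, against 1275 in the rhs mutant library and 1481 in the rhs sibling library, and here the gsp sibling library was the highest of the 4. Its ratio, again not centred, was 0.485 in gsp (0.446 to 0.527) and 0.861 in rhs (0.798 to 0.928).

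Of the other kept rows of the stretch, some had ratios below 0 in both mutants and others did not, such as pvrl3l at 0.29 in gsp and -0.30 in rhs and cbr1l at 0.11 and 0.23. The adjacent sialidase gene neu3.1 had 339 in the gsp mutant library and 504 in the gsp sibling library, and 340 in the rhs mutant library and 508 in the rhs sibling library, with centred log2 ratios of -0.46 in gsp and -0.38 in rhs. The antimicrobial peptide gene defbl1, a beta-defensin, had 4312 in the gsp mutant library and 7414 in the gsp sibling library (-0.67), and 3470 in the rhs mutant library and 5637 in the rhs sibling library (-0.50). So defbl1 passed the threshold in gsp and missed it in rhs by a small margin, and the difference between the lines was small (-0.17). The clone-named row si:ch211-191j22.3 at the start of the stretch had 2136 in the gsp mutant library and 3963 in the gsp sibling library (-0.78), beside 553 in the rhs mutant library and 760 in the rhs sibling library (-0.26).

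The other rows past the threshold in the myo5b window were spread out. gng8, which encodes a G protein gamma subunit, was lower in gsp at 182 in the mutant library and 331 in the sibling library (-0.76), and in rhs it had 189 and 257 (-0.24). si:rp71-1p14.7 was lower at 150 in the gsp mutant library and 250 in the gsp sibling library (-0.62, beside -0.33 in rhs). On the higher side ccdc90b, which encodes a coiled-coil protein of mitochondria, had 561 in the gsp mutant library and 347 in the gsp sibling library (0.80), against 1006 in the rhs mutant library and 1038 in the rhs sibling library (0.15). Both gsp libraries were below both rhs libraries for this gene, and the gsp sibling library was the lowest. The deubiquitinase gene usp28 had 356 in the gsp mutant library and 256 in the gsp sibling library (0.58), against 182 in the rhs mutant library and 273 in the rhs sibling library (-0.39). lifrb and tmem45b, the remaining higher rows of the window, were higher in both mutants and are described next.

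Rows higher in both mutants were counted next. Of the 516 kept rows, 24 (4.65%) were higher in the mutant in both lines, against 4.61% of the kept rows of all chromosomes, and 1 was lower in both (0.194%, against 0.315%). Both shares were near the background. The siblings of the lines were within the threshold of each other in 22 of the 24 rows, and in 19 of the 24 the rhs ratio was the larger. Neither count was taken over all chromosomes for rows higher in both. Over all kept rows, 9.95% were higher and 8.44% lower between the siblings. The SD of the ratios there was 0.50 in rhs and 0.42 in gsp. The 24 rows were not evenly spread. Of them 10 lay in the 25 to 30 Mb window among its 88 kept rows, next to the window of myo5b. In that window 12 rows (13.6%, rank 19 of 265) were higher in gsp and 19 (21.6%, rank 8) in rhs.

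Receptors led the list. f2rl1.2 and f2rl1.1 encode protease-activated receptors of the kind that trypsin-like enzymes cleave, and they lie side by side 14.3 Mb from myo5b. f2rl1.2 had 6424 in the gsp mutant library and 1046 in the gsp sibling library, and 4487 in the rhs mutant library and 494 in the rhs sibling library. Its ratios were 6.14 in gsp (interval 5.75 to 6.56) and 9.08 in rhs (8.28 to 9.99), the largest among the kept rows in both lines. f2rl1.1 had 827 in the gsp mutant library and 315 in the gsp sibling library, and 3968 in the rhs mutant library and 534 in the rhs sibling library, with ratios of 2.63 (2.303 to 2.999) and 7.43 (6.79 to 8.15). In each line the mutant library was above the sibling library for both genes. The type labels of the pair are crossed, MO in gsp and FL in rhs for f2rl1.2 and the reverse for f2rl1.1. Another receptor of this family nearby, LOC794215, described as proteinase-activated receptor 1-like, was instead lower in gsp, with 449 in the mutant library and 806 in the sibling library (-0.73, beside -0.05 in rhs). Whether f2rl1.1 and f2rl1.2 share reads was not tested. lifrb, which encodes a receptor subunit for cytokines of the interleukin 6 family, had 846 in the gsp mutant library and 294 in the gsp sibling library (ratio 2.88, interval 2.52 to 3.30), and 692 in the rhs mutant library and 324 in the rhs sibling library (2.14, 1.87 to 2.44).

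Claudins, the membrane proteins that seal tight junctions, formed another group, 3.46 to 3.51 Mb from myo5b. The stretch from 25068400 to 25182014 held 12 rows, 8 of them kept, with 3 higher in gsp and 5 in rhs and 0 lower in either. Its bounds were again chosen after the values were seen, so these counts follow from that choice. Over the kept rows of all chromosomes 6.69% were higher in gsp and 10.2% in rhs. cldnb, a claudin of zebrafish epithelia, had 42361 in the gsp mutant library and 10294 in the gsp sibling library, and 65058 in the rhs mutant library and 9747 in the rhs sibling library. The ratios were 4.12 (4.03 to 4.21) and 6.67 (6.53 to 6.82), while the siblings of the lines were nearly equal. cldnc had 3111 in the gsp mutant library and 1811 in the gsp sibling library, and 4062 in the rhs mutant library and 1543 in the rhs sibling library. cldnh had smaller ratios, with 8925 in the gsp mutant library and 6906 in the gsp sibling library, a centred log2 ratio of 0.48 that did not pass in gsp, and 10959 and 6456 in rhs, where it passed at 0.96. cldnd was low, between 13.8 and 27.8 in the 4 libraries. zgc:136892 in the same stretch was at 1.37 in gsp and 1.96 in rhs.

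On the list of tight junction and adhesion genes, 5 of the 8 rows on chromosome 21 were kept, and 2 were higher in gsp and 3 in rhs with 0 lower. Over the genome 136 rows of that list were kept, of which 23 were higher and 2 lower in gsp, and 33 higher and 15 lower in rhs. The other adhesion members of the chromosome, jam3b and the nectin-like gene pvrl3l, were within the threshold, at 0.0095 and 0.29 in gsp and 0.019 and -0.30 in rhs. Of 4 epidermal markers on other chromosomes, the junction gene cdh1 had 20815 in the gsp mutant library and 11430 in the gsp sibling library, and 24769 in the rhs mutant library and 11192 in the rhs sibling library, while the keratin gene krt4 had 1961954 and 3665460 in the gsp libraries and 3332159 and 2883598 in the rhs libraries. The 4 together summed to 2275898 in the gsp mutant library and 4157086 in the gsp sibling library. In rhs, with epcam at the floor, they summed to 3595525 in the mutant library and 3209646 in the sibling library. Most of each sum was krt4. Singly the markers were unequal in gsp, with krt4 at -0.79, krt5 at -1.02, cdh1 at 0.97 and epcam at 1.19. In rhs krt4 was at 0.41, krt5 at -0.20 and cdh1 at 1.34. The part of these markers in the claudin values was not tested.

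Complement factor B genes lay 5.15 to 5.18 Mb from myo5b. cfb encodes complement factor B, the protease of the alternative complement pathway. It had 16183 in the gsp mutant library and 6342 in the gsp sibling library, and 21699 in the rhs mutant library and 7674 in the rhs sibling library, with ratios of 2.55 (2.48 to 2.63) and 2.83 (2.75 to 2.90). The related gene bfb lies beside it and had 454 in the gsp mutant library and 200 in the gsp sibling library, and 488 in the rhs mutant library and 242 in the rhs sibling library. The clone-named row zgc:158446 that follows it was at 1.17 in gsp and 1.62 in rhs. c6, a component of the terminal complement complex, lies on the other side of myo5b, at a distance of 1.75 Mb, and is not one of the 24. It had 1967 in the gsp mutant library and 1629 in the gsp sibling library (0.38), and 3923 in the rhs mutant library and 2129 in the rhs sibling library (1.08). Of the list of immune genes, 5 of 10 rows on the chromosome were kept, 1 higher in gsp and 2 in rhs, beside 27 of 120 in gsp and 38 of 120 in rhs over the genome. The list was drawn by symbol and holds neither bfb, higher in both mutants, nor defbl1, lower in gsp. The antigen-presentation gene cd74 had 2747 in the gsp mutant library and 2963 in the gsp sibling library, and was at 0.28 in rhs.

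**Figure D4:**
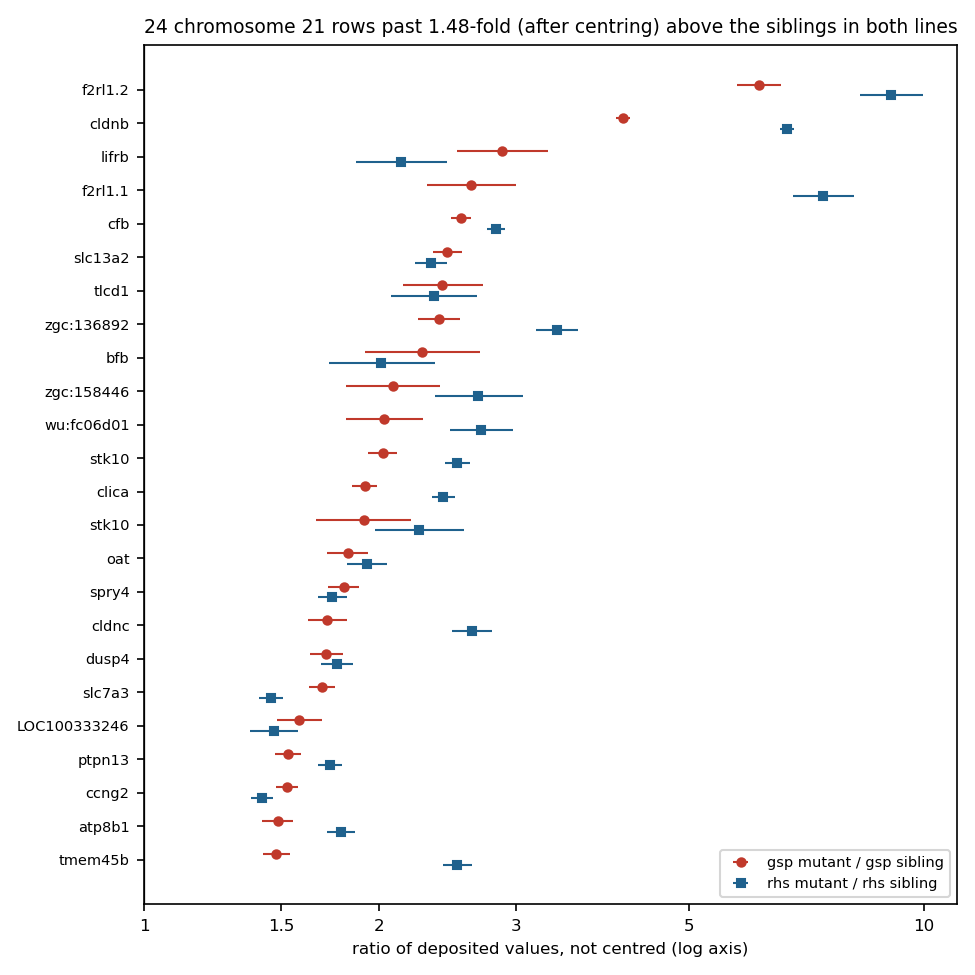
Ratio of mutant to sibling values, not centred and on a log axis, for the 24 kept rows that were called higher after centring in both lines, with gsp as red circles above rhs as blue squares. Horizontal bars are exact 95% counting intervals, and stk10 appears as 2 rows with separate models. f2rl1.2 leads in both lines (6.14 in gsp, 9.08 in rhs), and f2rl1.1, cldnb and tmem45b stand well to the right in rhs relative to gsp.

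The rest included transporters and inhibitors of signalling. slc13a2, a sodium-dependent dicarboxylate transporter, had 7000 in the gsp mutant library and 2859 in the gsp sibling library, and 5847 in the rhs mutant library and 2504 in the rhs sibling library, which are ratios of 2.45 (2.34 to 2.56) and 2.34 (2.23 to 2.45). The organic anion transporter gene oat had 3064 in the gsp mutant library and 1680 in the gsp sibling library, and 3215 and 1666 in the rhs libraries. The cationic amino acid transporter gene slc7a3 was at 0.87 in gsp and 0.74 in rhs. Of the list of solute carriers 9 of 12 rows on the chromosome were kept, 3 higher and 0 lower in gsp, and 3 higher and 1 lower in rhs. Over the genome 28 of 194 kept rows of that list were higher and 3 lower in gsp, and 35 higher and 7 lower in rhs. clica, a chloride intracellular channel gene, was at 1.05 in gsp and 1.47 in rhs, and the phospholipid flippase gene atp8b1 at 0.68 and 1.04.

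Among signalling genes, spry4 had 5444 in the gsp mutant library and 3021 in the gsp sibling library, and 5823 in the rhs mutant library and 3343 in the rhs sibling library. The product of spry4, a Sprouty protein, restrains receptor tyrosine kinase signalling. dusp4, whose product removes phosphate from MAP kinases, had 4319 in the gsp mutant library and 2522 in the gsp sibling library, and 5008 and 2834 in the rhs libraries. With klf4a, dusp4 makes up the AP-1 and early response list on the chromosome, of which 1 row was higher in gsp and 2 in rhs. Over the genome 71 rows of that list were kept, 35 higher and 0 lower in gsp and 39 higher and 2 lower in rhs. Both rows of the kinase gene stk10 were higher in both lines, at centred log2 ratios of 1.04 and 1.13 in gsp and 1.37 and 1.53 in rhs. Of the 6 kept rows on the kinase list (12 on the chromosome) these 2, rows of the same gene, were the only ones called in gsp. The list was drawn by symbol and leaves out some kinase genes, such as chek1. In rhs the neuronal kinase gene mapk10 was lower (-0.57). Over the genome 162 rows of the kinase list were kept, 15 higher and 0 lower in gsp, and 14 higher and 12 lower in rhs. The membrane protein genes tlcd1 and tmem45b were at 1.38 and 0.67 in gsp and at 1.43 and 1.53 in rhs. ccng2, which encodes cyclin G2, was at 0.72 and 0.70, and the phosphatase gene ptpn13 at 0.72 and 0.99.

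A smaller set of 15 rows was higher in gsp and within the threshold in rhs, which does not show that the lines differ. Counts of rows past the threshold in 1 line alone were not taken over all chromosomes. There, 6.69% of the kept rows were higher in gsp and 4.61% in both lines, beside 7.75% and 4.65% on chromosome 21. The largest of the 15 was pygma, the muscle glycogen phosphorylase gene. It had 12894 in the gsp mutant library and 5510 in the gsp sibling library (ratio 2.34, interval 2.27 to 2.42), against 5366 in the rhs mutant library and 6676 in the rhs sibling library (0.804, 0.775 to 0.833). The gsp mutant library was above the other 3 libraries. The sarcomeric actinin gene actn3a behaved likewise, with 86688 in the gsp mutant library and 53900 in the gsp sibling library (0.79), against 43289 in the rhs mutant library and 68182 in the rhs sibling library (-0.46). Of the muscle markers, 3 of 4 were in the table, none at the floor, and their sum was 1159321 in the gsp mutant library and 812670 in the gsp sibling library, against 690556 in the rhs mutant library and 908237 in the rhs sibling library. The markers were unequal in gsp, with ckma at 0.89, acta1b at 0.25 and tnnt3a at -0.12, and in rhs they were at -0.11, -0.41 and -0.29. The part of muscle content in the values of pygma and actn3a was not tested.

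Also higher in gsp were slc45a2, a transporter gene of pigment cells, with 6517 in the mutant library and 4311 in the sibling library (0.71, beside -0.0019 in rhs), and the growth hormone receptor gene ghrb (0.63, beside 0.35). The Notch receptor gene notch1a is in the table as more than 1 row, and the row from 5057239 to 5083787 had 2540 in the gsp mutant library and 1624 in the gsp sibling library (0.75), against 1047 in the rhs mutant library and 1142 in the rhs sibling library (0.07). The short row from 4318158 to 4325069 was at 1.02 in gsp and 0.38 in rhs. How reads were shared between rows of 1 gene is not given in the sources used here.

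Of the 15 rows lower in gsp (2.91%, against 2.81% of all kept rows), 13 were within the threshold in rhs. Besides those near myo5b, tmsb, which encodes a thymosin that binds actin monomers, had 14025 in the gsp mutant library and 23964 in the gsp sibling library (-0.66), and 13123 in the rhs mutant library and 18611 in the rhs sibling library (-0.31). gfpt2, an enzyme of the hexosamine pathway, had 5838 in the gsp mutant library and 9714 in the gsp sibling library (-0.63), against 8704 in the rhs mutant library and 8761 in the rhs sibling library (0.19). The DNA-binding protein gene pura was at -0.65 in gsp and -0.25 in rhs. The lens crystallin gene cryba1b was low in both lines, with 44412 in the gsp mutant library and 72633 in the gsp sibling library (-0.60), and 51272 in the rhs mutant library and 82344 in the rhs sibling library (-0.49). The 3 lens markers on other chromosomes summed to 88605 in the gsp mutant library and 141750 in the gsp sibling library, and to 96347 in the rhs mutant library and 159472 in the rhs sibling library, and their part in the value of cryba1b was not tested. gstt1b, a glutathione transferase gene, and mtmr1b, a phosphoinositide phosphatase gene, complete the named low genes at -0.52 and -0.51, short of the threshold. The lowest gsp ratio among the kept rows was that of the clone-named si:dkey-270m17.5, with 1889 in the gsp mutant library and 5619 in the gsp sibling library (-1.46), and 1615 in the rhs mutant library and 2202 in the rhs sibling library (-0.25). The single row past the threshold below the siblings in both lines was LOC100001479, described as a glucose-dependent insulinotropic receptor-like gene, at -1.02 in gsp and -0.83 in rhs.

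In rhs, 29 rows were lower (5.62%, against 5.12% of all kept rows), and 27 of these were within the threshold in gsp. rx3, a homeobox gene of the developing retina and hypothalamus, had 185 in the rhs mutant library and 442 in the rhs sibling library (ratio 0.418, interval 0.351 to 0.498), against 642 in the gsp mutant library and 529 in the gsp sibling library (1.21, 1.08 to 1.36). nrxn2a, which encodes a presynaptic neurexin, had 1163 in the rhs mutant library and 2285 in the rhs sibling library (-0.78, beside -0.04 in gsp). celf4, an RNA-binding protein gene of neurons, was at -0.69 beside 0.14 in gsp, and the glutamate receptor gene gria4b, 0.47 Mb from myo5b, at -0.61 beside -0.04. The 3 neuron markers summed to 44340 in the rhs mutant library and 71119 in the rhs sibling library, and to 62883 in the gsp mutant library and 75094 in the gsp sibling library. Singly, elavl3, snap25a and stmn1b were at -0.22, -0.49 and -0.52 in rhs. They were unequal in gsp, at 0.44, -0.05 and -0.22. The part of these markers in the values of the genes above was not tested. The phosphatase inhibitor gene ppp1r14ba (-0.85) and the sulfate transporter gene slc26a1 (-0.71) were low in rhs as well, at -0.27 and 0.09 in gsp.

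Of the 52 rows higher in rhs (10.1%, against 10.2% of all kept rows), 27 were within the threshold in gsp. klf4a, a Kruppel-like transcription factor gene, had 1196 in the rhs mutant library and 458 in the rhs sibling library (ratio 2.61, interval 2.34 to 2.91), against 190 in the gsp mutant library and 237 in the gsp sibling library (0.803, 0.659 to 0.974). Its centred log2 ratios were 1.58 in rhs and -0.21 in gsp. All values of this gene were lower in the gsp line than in the rhs line, and its row was marked FL in gsp and MO in rhs. st14b, which matches human ST14 (matriptase, a membrane protease of epithelia) by its description, had 6635 in the rhs mutant library and 3496 in the rhs sibling library (1.12), and 4344 in the gsp mutant library and 3706 in the gsp sibling library (0.34). foxi3a, a transcription factor gene of zebrafish skin ionocytes, was at 0.78 in rhs and 0.13 in gsp. The list of zinc finger and homeobox transcription factors, drawn by symbol, had 8 of 10 rows kept. Of these, 2 were higher in rhs (pou5f1 and foxi3a), 0 lower, and 0 past the threshold in gsp. The list does not hold klf4a, nor the homeobox gene rx3, which was lower in rhs (-1.06). Over the genome 318 rows of that list were kept, with 18 higher and 30 lower in rhs and a median of -0.14 there, and 12 higher and 3 lower in gsp.

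Members of 5 further lists, each with few rows on the chromosome, were within the threshold in both mutants. The 6 kept membrane traffic genes, of 7 on the chromosome, had medians of -0.11 in gsp and 0.01 in rhs, with 0 past the threshold, beside 11 higher and 1 lower in gsp and 27 higher and 17 lower in rhs among 268 rows over the genome. Among them the syntaxin binding protein gene stxbp1a was at 0.17 and -0.55, the retromer gene vps29 at -0.19 and 0.04, and the sorting nexin gene snx12 at -0.15 and -0.02. The 6 ribosome and translation genes had medians of -0.10 and 0.08, with rps14 at -0.03 and 0.10. The 3 respiratory chain genes had medians of -0.15 and -0.01, the proteasome gene psmb7 was at -0.12 and 0.13, and the 4 kept collagen and matrix genes of 6 had medians of 0.02 and -0.01. The median over all kept rows is 0 by construction. No keratin of the list lay on the chromosome.

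The largest differences of the chromosome lay between the sibling libraries. col5a1, which encodes a collagen V chain, had 20060 in the gsp mutant library and 19932 in the gsp sibling library, against 572 in the rhs mutant library and 675 in the rhs sibling library. The sibling ratio was 29.5 (interval 27.3 to 31.9), with hardly any difference within a line. The tRNA synthetase gene nars went the other way, with 2461 in the gsp mutant library and 2290 in the gsp sibling library against 18824 in the rhs mutant library and 18629 in the rhs sibling library. lars, also a tRNA synthetase gene, had 6475 in the gsp mutant library and 5129 in the gsp sibling library against 1095 in the rhs mutant library and 1130 in the rhs sibling library. sh3pxd2b, an adaptor of invasive cell protrusions, was at 2.31 in the sibling comparison and fam169ab at -3.06. Siblings were 8-fold or more apart in 5 of the 516 kept rows. All 5 were within the threshold in gsp and 4 of 5 in rhs.

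The size of these differences went with the type label. All 5 rows with siblings 8-fold or more apart were among the 163 kept rows marked MO in both lines. Such rows were not particular to this chromosome. Over all chromosomes 152 of 4260 kept rows marked MO in both lines were as far apart, and 1 of 8193 marked FL in both. With mixed labels these were 11 of 535 rows (FL in gsp, MO in rhs) and 5 of 645 (the reverse). Of the 303 kept rows of chromosome 21 marked FL in both lines, 19 (6.27%) were past the threshold between the siblings, against 47 of 163 (28.8%) marked MO in both, and the SD of the ratio was 0.31 against 1.03. The label made much less difference within a line, where the shares were 9.24% and 13.5% in gsp and 13.9% and 17.8% in rhs. The same held over all chromosomes, where 8.34% of FL rows and 34.8% of MO rows were past the threshold between the siblings. The part of the label in the sibling differences was not tested, and the SD of the ratios within a line was similar under both labels, at 0.40 and 0.39 in gsp and 0.45 and 0.45 in rhs.

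**Figure D5:**
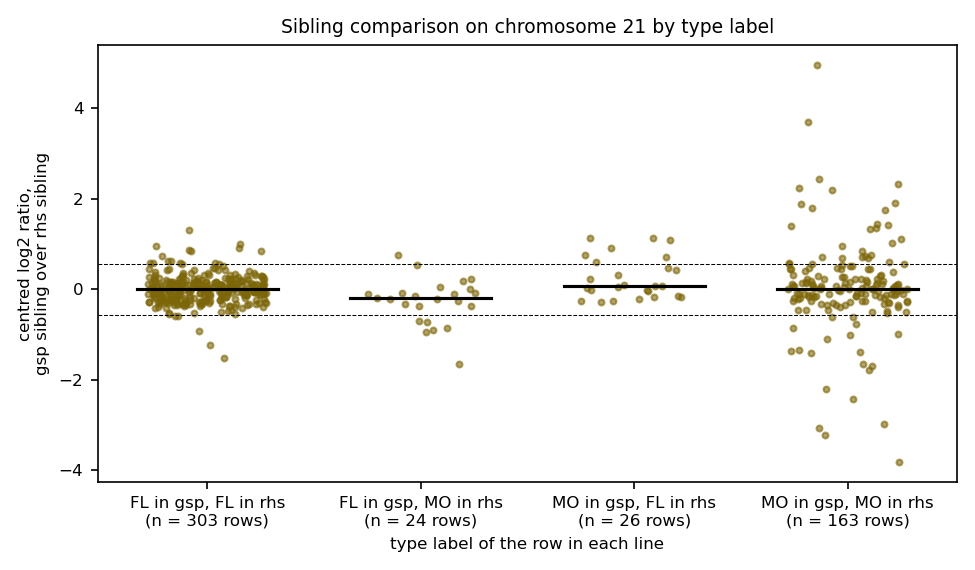
Centred log2 ratio of gsp sibling over rhs sibling for each of the 516 kept rows of chromosome 21 (points), by the type label of the row in the gsp and in the rhs line, with black bars at the medians and dashed lines at the threshold of 0.57. Rows marked FL in both lines (n = 303) lie close to 0 and those marked MO in both (n = 163) spread out to 4.94 for col5a1 and to -3.81 for LOC100535188.

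Rows read in a single line complete the account. On chromosome 21, 22 rows were at the floor in both rhs libraries with at least 50 in both gsp libraries (2.21% of 997, against 1.72% of all rows), and 12 were at the floor in both gsp libraries with at least 50 in both rhs libraries (1.2%, against 1.51%). Not a single row of the chromosome was at the floor in 1 library with at least 50 in the other 3. All 22 were marked MO in gsp and FL in rhs, and all 12 the reverse, so that the floor went with the label. The largest of the first kind was wu:fb15e04, from 24464802 to 24474827 and 2.80 Mb from myo5b, with 14749 in the gsp mutant library and 111395 in the gsp sibling library. Its ratio of 0.132 (interval 0.130 to 0.135) was the lowest in gsp of any chromosome 21 row read in both gsp libraries at 100 or more. The table gives it gene ontology terms for a structural molecule of intermediate filaments, the filament class to which keratins belong. Both epidermal keratin markers, krt4 and krt5, were lower in the gsp mutant library too (-0.79 and -1.02). The other epidermal markers, cdh1 and epcam, were higher there (0.97 and 1.19). The part of these markers in the value of wu:fb15e04 was not tested. In the keratin list, whose genes lie on other chromosomes, 5 of 10 kept rows were lower and 1 higher in gsp, with a median of -0.58. In rhs 0 were lower and 2 higher, with a median of 0.29. Over all kept rows 2.81% were lower and 6.69% higher in gsp, and 5.12% lower and 10.2% higher in rhs. The other high rows of the first kind were within the threshold in gsp, such as LOC572200, described as similar to vimentin, with 13633 in the gsp mutant library and 15548 in the gsp sibling library, and dmgdh, a mitochondrial enzyme gene, with 953 and 938. Of the second kind, larp1, an RNA-binding protein gene, had 1264 in the rhs mutant library and 1726 in the rhs sibling library, and the arrestin domain gene arrdc1b 612 and 268. irf11, an interferon regulatory factor gene, fell short of the minimum of 100 only in the gsp sibling library, with 693 in the gsp mutant library and 80.6 in the gsp sibling library, and 731 in the rhs mutant library and 133 in the rhs sibling library. It was thus higher in both mutants and is not counted among the 24.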

How the data were processed

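RNA of pooled whole embryos was sequenced in 4 libraries, 1 a condition. The authors trimmed reads (FastQC and FastX toolkit), aligned them with TopHat 2.0 to danRer7 and calculated a value per gene model with DEGseq, which the paper calls RPKM. The deposited columns headed raw are not scaled and are floored at 1 and were read here as estimated counts. Counting intervals hold only if they are counts. The deposited normalized columns (log2 values) and the authors' tables of fold changes were not used. All 4 value columns were matched to a sample by the labels.

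Rows of chromosome 21 with at least 100 in all 4 libraries were kept. Log2 ratios were centred on the median over all chromosomes and summarised in 5 Mb windows of the start position. The threshold, about 1.5-fold (0.57 on the log2 scale), is the one the study used. Calculations used Python 3.11.15 with pandas 2.3.3 and scipy 1.17.1, and TMM factors edgeR 4.0.16. No test was run. The code was tested on simulated data. The alternatives were other minimum values, scalings, pseudocounts and windows, 1 row per gene and no overlapping models, and, chosen after seeing the data, FL rows only and a minimum in the compared libraries only. The members and gene lists were chosen with earlier results of these data known. Lists were drawn by gene symbol and do not hold every gene of a kind. Named were the 10 highest and 10 lowest gsp ratios, 6 at each end of the other comparisons, rows near myo5b and up to 4 members of a list, passing over clone names, apart from those named for a reason given beside them. LOC794215, ghrb, ptpn13, ccng2, atp8b1, clica, oat, spry4, actn3a, slc45a2, notch1a, st14b, tmem45b, irf11, cbr1l and the clone-named rows were named after their values were seen. A gene that the rule names is not reported here. Of 997 Entrez identifiers 849 were in the reference table. No sequence was printed. The promoter motif count that had been planned was not run.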

Additional observations from a re-analysis of the deposited data

Results flagged for a closer look

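On chromosome 21, 2 kept rows were past the threshold in opposite directions in the lines, as were 40 rows of the whole table, and the difference was not tested. zgc:122979 had 864 in the gsp mutant library and 558 in the gsp sibling library (0.74), against 424 in the rhs mutant library and 725 in the rhs sibling library (-0.58), a gsp minus rhs difference of 1.32 on the log2 scale. zgc:136410 had 8381 in the gsp mutant library and 14203 in the gsp sibling library (-0.65), against 13924 in the rhs mutant library and 9774 in the rhs sibling library (0.71), a difference of -1.36.

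Among rows outside the kept ones, wu:fb15e04 had a centred log2 ratio of -2.81 in gsp and was at the floor in rhs. Also outside the kept rows were the 22 rows read in gsp and at the floor in rhs, and the 12 with the reverse. The 22 were 2.21% of the rows of the chromosome, against 1.72% of all rows of the table. The 12 were 1.2%, against 1.51%. Such rows were thus not particular to this chromosome, and in both sets the floor went with the type label.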

How the results depend on the processing

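For the 9 summary results, 87 values were recomputed under 12 alternatives. Of these, 78 stayed within 1.5 times the count or within the order-statistic interval of the median, and 9 moved. Signs were not part of this rule. The rhs chromosome median (0.014) fell below 0 without centring and with TMM scaling. The sibling median (0.0037) did so under both of these, and with a minimum of 200. The chromosome medians moved with the scaling: without centring they were -0.12 in gsp, -0.18 in rhs and -0.053 between the siblings, and with TMM scaling -0.056 in gsp and -0.070 in rhs, which are shifts of all rows by construction. With only the 303 rows marked FL in both lines, 30 rows were past the threshold in gsp, 40 in rhs and 18 between the siblings (main counts 55, 81 and 80 of 516 rows). These counts rest on unlike numbers of rows. With the main centring, the shares of FL rows past the threshold were 9.24% in gsp, 13.9% in rhs and 6.27% between the siblings. Over all 516 rows they were 10.7%, 15.7% and 15.5%. Beyond these shares the cause was not tested. With FL rows only, the median absolute ratio of the myo5b window between the siblings was 0.12 over 31 rows against 0.24 over 57. In gsp that window had 3 of 31 FL rows lower, 4 of 57 with a pseudocount of 100, 4 of 51 with a minimum of 200 and 7 of 57 with TMM scaling. No paired analysis was possible because each condition has 1 library, and for the same reason no replicate could be left out. The limit on all values is 1 library a condition, and values near 100 have the widest counting intervals.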
